A study of Equus caballus with 15 samples.

Results

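The genes examined were 9 genes of platelets and their precursors, chosen by symbol: PPBP, PF4, SELP, ITGA2B, GP9, GP1BA, GP1BB, TUBB1 and TREML1. Of these, 7 were found among the 16932 genes of the expression table, and PF4 and GP1BB, which are not listed there under those symbols, were not analysed here. The question was whether transcripts of these genes were higher in macrophages that had been exposed to a platelet lysate than in macrophages exposed to other treatments. RNA was sequenced from equine macrophages in 5 conditions with 3 libraries each. The cells were derived from blood monocytes of 2 geldings, aged 3 and 5 years, over 5 days with M-CSF at 30 ng/ml, and this was shared by every condition. Untreated macrophages received no cytokine. Macrophages of the IL-1ß condition received IL-1ß at 10 ng/ml for 24 h. In the other conditions an orthobiologic therapy (OT) made up 25% of the medium together with the same IL-1ß. The first OT was medium conditioned by mesenchymal stromal cells (MSC-CM). The second was plasma enriched in platelets whose cells had been lysed (PRP lysate). The last was ACS, or autologous conditioned serum, made from incubated blood.

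The OTs came from 3 other horses aged 2 to 5 years, of both sexes and of the same breed as the geldings, so those libraries replicate the product. The study describes the IL-1ß and untreated libraries as technical replicates, so p-values against them do not cover variation between horses. The titles do not say which gelding gave the macrophages of a library, so no comparison is known to cover variation between macrophage donors. By the study's methods the cells were washed after treatment and cultured for another 24 h, whereas the sample records go from the wash to RNA extraction.

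Platelets have no nucleus and carry RNA and proteins inherited from megakaryocytes. Their alpha granules store chemokines such as platelet basic protein, encoded by PPBP, and platelet factor 4, and also P-selectin, encoded by SELP. Their surface carries the von Willebrand factor receptor (GP1BA, GP1BB, GP9 and GP5) and the fibrinogen receptor, an integrin of ITGA2B and ITGB3. TUBB1 encodes the tubulin of the ring that gives platelets their disc shape, and TREML1 a receptor of the alpha granule membrane. Some of these genes are not restricted to platelets: PPBP is also transcribed in monocytes and macrophages, and SELP in endothelial cells.

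The libraries held 28410739 to 47894069 reads counted on genes, and levels are given in CPM, read counts scaled to the same total in every library, of which 1 corresponds to 28.4 reads in the shallowest library. Of the first principal component, which held 55.4% of the variance, IL-1ß replicate 3 (-103) and PRP lysate replicate 1 (-51.7) lay farthest out, with the rest between -20.7 and 26.6. Member calls that changed without these libraries are therefore given with and without them. The macrophage marker CD68 stood at mean levels of 1430 to 2019 CPM in the 5 conditions and CSF1R at 182 to 468 CPM, while CD14 was low, at 1.75 to 3.46 CPM. T cell markers were present as well, with a summed level of 795 to 2180 CPM per library over 10 listed genes, of which 0 of 9 tested were called by limma in any of the 7 comparisons (10 gene by comparison tests had an unadjusted p under 0.05, with 0 calls by edgeR and 2 by DESeq2, and in comparisons with IL-1ß 1 was called without IL-1ß replicate 1 and 1 without PRP lysate replicate 1). B cell markers summed to 55.8 to 85.2 CPM, and 0 of 5 tested were called by limma in any comparison (6 tests with an unadjusted p under 0.05, 0 calls by edgeR and 3 by DESeq2, and 1 by limma without PRP lysate replicate 1).

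Platelet genes did not move together with PRP lysate. PPBP had its highest mean with PRP lysate, SELP had its lowest mean there, and ITGA2B and TREML1 lay inside the range of the other conditions. GP9, GP1BA and TUBB1 averaged under 1 CPM and had their lowest pooled levels with PRP lysate. The 4 members with a mean of at least 1 CPM entered the test, which was limma on log2(CPM + 1) over 11628 genes with Benjamini-Hochberg adjustment. A gene was called where the adjusted p did not exceed 0.05 and the change was 2-fold or more. Between PRP lysate and IL-1ß, 1 of the 4 members was called, where 3.09% of all genes tested were, and 1 had groups that did not overlap, where 15% of all genes did. The called member was SELP, and it was lower.

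**Figure D1:**
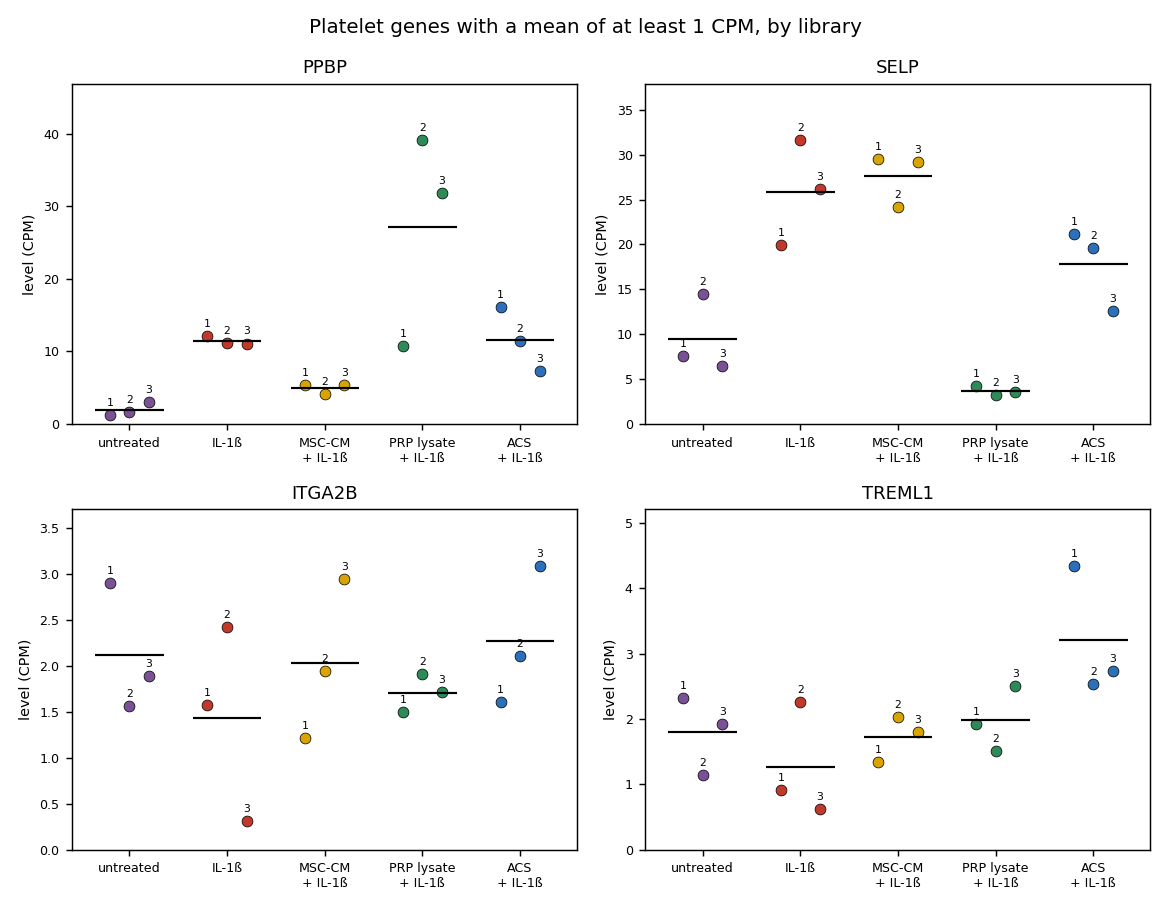
Levels in CPM (vertical axes, from 0) of the 4 members tested, in each of the 15 libraries, by condition. Points are libraries numbered by replicate and horizontal lines are means of 3. PPBP reached 39.1 and 31.8 CPM in PRP lysate replicates 2 and 3, and SELP stayed at 3.20 to 4.25 CPM in all PRP lysate libraries, under every other library.

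PPBP encodes a CXC chemokine precursor that is cleaved to neutrophil activating forms. The gene (ENSECAG00000012702) lies on chromosome 3 at 63628303 to 63629198 of EquCab3.0. In untreated macrophages PPBP stood at 1.23, 1.60 and 3.10 CPM in replicates 1, 2 and 3. With IL-1ß alone it stood at 12.1, 11.2 and 11.1 CPM. All IL-1ß libraries were above all untreated ones, and their spread was narrow. With MSC-CM it stood at 5.41, 4.14 and 5.36 CPM, which was under every IL-1ß library and above every untreated one. With PRP lysate it stood at 10.7, 39.1 and 31.8 CPM. Replicate 1 of PRP lysate was just under the IL-1ß libraries, whereas replicates 2 and 3 were above every other library of the series. With ACS it stood at 16.1, 11.4 and 7.27 CPM, on both sides of the IL-1ß libraries. In this bulk RNA, more cells of a type and more RNA per cell cannot be told apart.

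The mean of PPBP was 11.5 ± 0.593 CPM (SD, n = 3) with IL-1ß against 1.97 ± 0.990 CPM in untreated macrophages, a ratio of 5.81. On the log2(CPM + 1) scale this was a rise of 2.12 (SE 0.403, limma, Benjamini-Hochberg adjusted p = 0.0471). PPBP was thus the 1 called member of 4 between IL-1ß and untreated macrophages, where 0.292% of all genes were called. The groups did not overlap for 2 of the 4, where those of 16.2% of all genes did not. This call was close to the threshold and was lost on leaving out any 1 of the 6 libraries, with limma adjusted p-values of 0.0653 to 0.17 and changes of 1.93 to 2.37. It was kept in 7 of 16 alternatives, among them edgeR (adjusted p = 0.0386) and DESeq2 (adjusted p = 7.36e-06). Without both IL-1ß replicate 3 and PRP lysate replicate 1 the change was 2.14 and called (limma, adjusted p = 0.00384). The study names PPBP among the genes most upregulated by IL-1ß.

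Against IL-1ß alone, PPBP averaged 27.2 ± 14.8 CPM (SD, n = 3) with PRP lysate, a ratio of 2.37. The difference was 1.00 on the log2(CPM + 1) scale (95% interval 0.13 to 1.87), the groups overlapped and PPBP was not called (limma, Benjamini-Hochberg adjusted p = 0.208). The call turned on a single library. Without PRP lysate replicate 1 the difference was 1.54 and PPBP was called (limma, adjusted p = 0.0109), and without both that library and IL-1ß replicate 3 it was 1.52 (limma, adjusted p = 0.00971).

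Against MSC-CM, PPBP was 5.47-fold higher with PRP lysate and was called, with a log2 change of 2.06 (SE 0.403, limma, Benjamini-Hochberg adjusted p = 0.0103). SELP was called in this comparison too, so 2 of the 4 members were, where 2.61% of all genes were called, and the same 2 did not overlap, as against 19.4% of all genes. The call of PPBP was lost without PRP lysate replicate 3, where the log2 change was 1.87 (limma, adjusted p = 0.0512). Without PRP lysate replicate 1 it was kept, with a log2 change of 2.61 (limma, adjusted p = 0.000627). Against untreated macrophages PPBP was 13.8-fold higher with PRP lysate, with a log2 change of 3.11 (SE 0.403, limma, Benjamini-Hochberg adjusted p = 0.00109). It was the 1 called member there, where 1.6% of all genes were called. This call was kept on leaving out each of the 6 libraries in turn, with log2 changes of 2.77 to 3.66. PPBP and SELP did not overlap between these groups, where 18.6% of all genes did not.

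PRP lysate against ACS gave a difference of 1.05 for PPBP (95% interval 0.17 to 1.92), with overlapping groups and no call (limma, Benjamini-Hochberg adjusted p = 0.802). It stayed uncalled in all 6 fits that left out 1 library, with differences of 0.7 to 1.59 and a lowest limma adjusted p of 0.0823. Only with both IL-1ß replicate 3, which is in neither group, and PRP lysate replicate 1 left out was it called (1.59, limma, adjusted p = 0.0259). ACS against IL-1ß gave -0.05 (95% interval -0.92 to 0.82, limma, Benjamini-Hochberg adjusted p = 0.939), which turned to 0.22 without ACS replicate 3. MSC-CM against IL-1ß gave -1.07 (95% interval -1.94 to -0.20). All 3 MSC-CM libraries were under all IL-1ß ones, and PPBP was not called (limma, Benjamini-Hochberg adjusted p = 0.705). PPBP was the 1 member of 4 whose groups lay apart between MSC-CM and IL-1ß, where those of 8.79% of all genes did. The share of all genes called in that comparison was 0% by limma, with 42 genes at an unadjusted p of at most 0.05 and a 2-fold change, PPBP among them, and 0 of the 4 members were called by edgeR or DESeq2.

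The order of the group means of PPBP was PRP lysate, ACS, IL-1ß, MSC-CM and untreated. The libraries of PRP lysate, ACS and IL-1ß overlapped one another, MSC-CM lay under all of these, and untreated macrophages lay under MSC-CM with no overlap.

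SELP encodes P-selectin, an adhesion receptor that binds a ligand on leukocytes. The gene (ENSECAG00000010918) lies on chromosome 5 at 6041689 to 6088031 of EquCab3.0. In untreated macrophages SELP stood at 7.53, 14.5 and 6.46 CPM, and with IL-1ß alone at 19.9, 31.6 and 26.2 CPM. With MSC-CM it stood at 29.5, 24.2 and 29.2 CPM, inside the range of IL-1ß alone. With PRP lysate it stood at 4.25, 3.20 and 3.59 CPM. All PRP lysate libraries lay under the lowest of the other 12 libraries, and their SD was the smallest of the 5 conditions. With ACS it stood at 21.2, 19.6 and 12.6 CPM.

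The mean of SELP was 3.68 ± 0.527 CPM (SD, n = 3) with PRP lysate against 25.9 ± 5.83 CPM with IL-1ß, 7.03-fold lower. The log2 change was -2.50 (SE 0.277, limma, Benjamini-Hochberg adjusted p = 0.000218). The call was kept in all 16 alternatives, with log2 changes of -2.91 to -2.35, and it was as large, at -2.57, without IL-1ß replicate 3 and PRP lysate replicate 1. Of all genes tested, 124 were called higher and 235 lower with PRP lysate in this comparison.

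Against MSC-CM, SELP was 7.51-fold lower with PRP lysate, with a log2 change of -2.61 (SE 0.277, limma, Benjamini-Hochberg adjusted p = 0.000228), and the call was kept in all 17 alternatives. Against ACS it was 4.84-fold lower, with a log2 change of -1.98 (SE 0.277, limma, Benjamini-Hochberg adjusted p = 0.0133). Only 11 genes, or 0.0946% of those tested, were called between PRP lysate and ACS, all of them lower with PRP lysate, and SELP was the 1 member among them. SELP and TREML1 had groups that did not overlap there, where 15.6% of all genes did. This call of SELP was lost without PRP lysate replicate 3 (limma, adjusted p = 0.0745), ACS replicate 1 (limma, adjusted p = 0.0797) or ACS replicate 2 (limma, adjusted p = 0.107), with log2 changes of -1.97 to -1.85. Against untreated macrophages SELP was lower with PRP lysate in 3 of 3 libraries, with a log2 change of -1.09 (95% interval -1.69 to -0.50), and did not pass the threshold (limma, Benjamini-Hochberg adjusted p = 0.0582). It passed without untreated replicate 3 (limma, adjusted p = 0.0427) and without the 2 libraries that stood apart (limma, adjusted p = 0.0356), and also by edgeR and DESeq2 on recovered reads (adjusted p = 0.0428 and 0.00206). In the 5 other fits that left out 1 library, that without PRP lysate replicate 1 among them, it did not pass.

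Between IL-1ß and untreated macrophages, SELP differed by 1.41 (95% interval 0.81 to 2.01), with every IL-1ß library above every untreated one. This fell just short of the threshold (limma, Benjamini-Hochberg adjusted p = 0.0515), and was past it without untreated replicate 2 (limma, adjusted p = 0.0382). Without IL-1ß replicate 3 alone it was 1.39 and not called (limma, adjusted p = 0.0806). Without both that library and PRP lysate replicate 1 it was called (limma, adjusted p = 0.0302). PRP lysate replicate 1 is in neither group and enters only through the spread shared by all conditions. Against IL-1ß, SELP with ACS gave -0.52 (limma, Benjamini-Hochberg adjusted p = 0.276). With MSC-CM it gave 0.11 (95% interval -0.49 to 0.71, limma, Benjamini-Hochberg adjusted p = 0.887), a sign that turned under other scalings of the libraries. In the order of SELP means, MSC-CM and IL-1ß overlapped each other, IL-1ß overlapped ACS, ACS overlapped untreated macrophages, and PRP lysate stood apart at the bottom.

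**Figure D2:**
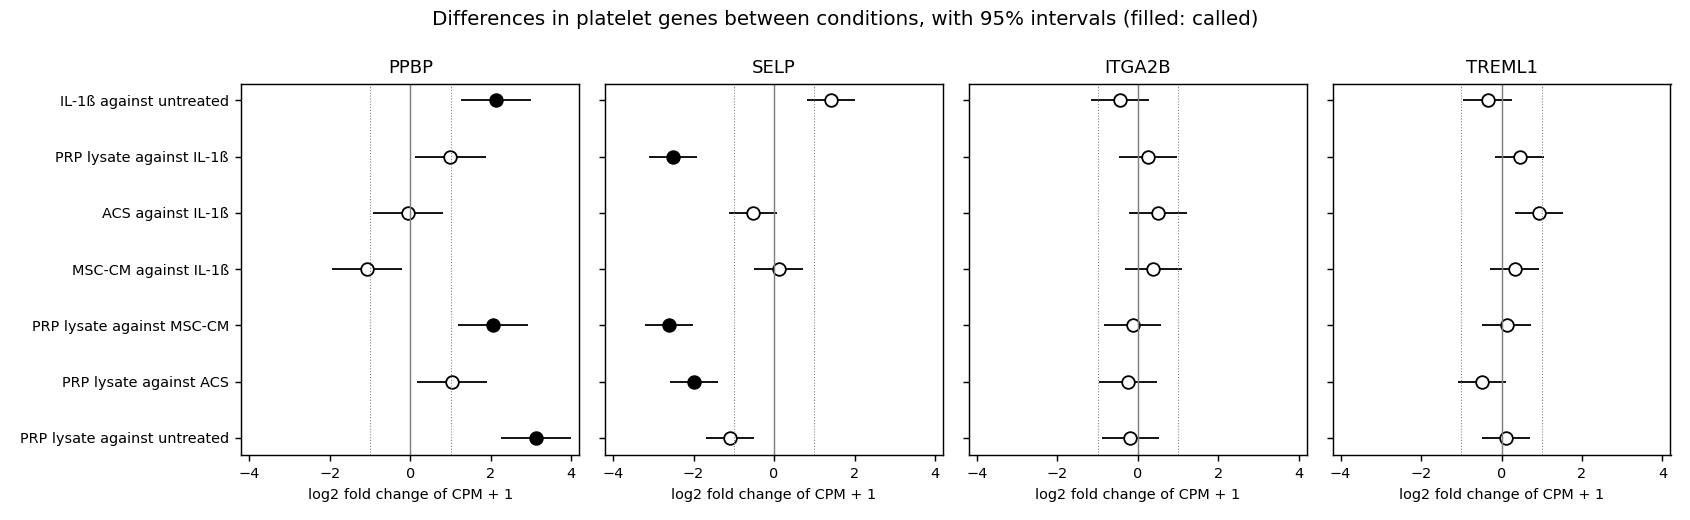
Log2 fold changes of CPM + 1 (horizontal axes) for the 4 members tested in the 7 comparisons (rows), as first-named minus second-named condition. Points are limma estimates, bars are 95% intervals, filled points were called and dotted lines mark 2-fold. The filled points for PRP lysate lie above 0 for PPBP and below 0 for SELP, and none is filled for ITGA2B or TREML1.

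ITGA2B encodes the alpha subunit of the platelet fibrinogen receptor. The gene (ENSECAG00000019870) lies on chromosome 11 at 19243749 to 19256924. It stood at 2.91, 1.57 and 1.89 CPM in untreated macrophages, at 1.58, 2.43 and 0.311 CPM with IL-1ß, and at 1.22, 1.95 and 2.95 CPM with MSC-CM. With PRP lysate it stood at 1.5, 1.91 and 1.72 CPM and with ACS at 1.61, 2.11 and 3.09 CPM. The ranges of all 5 conditions overlapped, and the lowest value was that of IL-1ß replicate 3. PRP lysate against IL-1ß gave 0.26 on the log2(CPM + 1) scale (95% interval -0.46 to 0.97, limma, Benjamini-Hochberg adjusted p = 0.726), and -0.14 without that library. No comparison of ITGA2B passed the threshold, with limma adjusted p-values of 0.336 to 0.959. The partner subunit ITGB3 stood at 116, 351 and 351 CPM with PRP lysate and 171, 115 and 21.3 CPM with IL-1ß. The ITGB3 groups overlapped, and it was not called (log2 difference 1.68, limma, Benjamini-Hochberg adjusted p = 0.159).

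TREML1 encodes a receptor of the TREM family that platelets bring to their surface on activation. The gene (ENSECAG00000012615) lies on chromosome 20 at 41453818 to 41458500. It stood at 2.32, 1.15 and 1.92 CPM in untreated macrophages, at 0.917, 2.26 and 0.622 CPM with IL-1ß, and at 1.34, 2.03 and 1.80 CPM with MSC-CM. With PRP lysate it stood at 1.93, 1.51 and 2.50 CPM, overlapping the untreated, IL-1ß and MSC-CM libraries. With ACS it stood at 4.34, 2.53 and 2.74 CPM. All ACS libraries were above all of the other 12. PRP lysate against IL-1ß gave 0.45 (95% interval -0.15 to 1.05, limma, Benjamini-Hochberg adjusted p = 0.45).

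ACS against IL-1ß gave 0.93 for TREML1 (95% interval 0.33 to 1.53), short of the threshold (limma, Benjamini-Hochberg adjusted p = 0.0918). Without IL-1ß replicate 2, the highest of its group, the difference was 1.23 and was called (limma, adjusted p = 0.0393). Between ACS and IL-1ß, 0 of the 4 members were called, where 2.21% of all genes were, and the groups of 1 did not overlap, where those of 26.2% of all genes did not. TREML1 was the 1 member with an unadjusted p under 0.05 there, and 0 members were called by edgeR or DESeq2. PRP lysate lay under ACS in 3 of 3 libraries for TREML1, with a difference of -0.48 (limma, Benjamini-Hochberg adjusted p = 0.842).

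The remaining members, GP9, GP1BA and TUBB1, averaged under 1 CPM and were not in the limma test, so they are given in recovered reads. GP9 and GP1BA encode parts of the von Willebrand factor receptor. GP9 (ENSECAG00000018985) lies on chromosome 16 at 3098594 to 3099128. In replicates 1, 2 and 3 it had 0, 5 and 6 reads in untreated macrophages, 0, 1 and 7 with IL-1ß, 0, 10 and 2 with MSC-CM, 0, 3 and 3 with PRP lysate, and 0, 2 and 12 with ACS. The pooled level with PRP lysate, 0.0558 CPM (exact Poisson 95% interval 0.0205 to 0.122), lay inside the interval with IL-1ß, 0.0344 to 0.157 CPM.

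GP1BA (ENSECAG00000040351) lies on chromosome 11 at 49929958 to 49931785. In PRP lysate it had 2 reads in replicate 2 and 0 in the others, a pooled 0.0186 CPM (exact Poisson 95% interval 0.00225 to 0.0672). The other conditions had 7 reads (IL-1ß), 8 (untreated), 15 (ACS) and 19 (MSC-CM) over their 3 libraries. Over the series GP1BA was at 0 in 7 of 15 libraries and GP9 in 5, with 51 reads in all for each, so a difference of a few reads could not be resolved at this depth.

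TUBB1 (ENSECAG00000025099) lies on chromosome 22 at 46381437 to 46387478. It had 9 reads in PRP lysate replicate 2 and 0 in replicates 1 and 3, and was at 0 in no other library of the series. It had 7, 11 and 8 reads with IL-1ß, 19, 7 and 28 with MSC-CM, 2, 11 and 38 with ACS, and 11, 5 and 23 in untreated macrophages. The pooled level was 0.0838 CPM with PRP lysate (exact Poisson 95% interval 0.0383 to 0.159) and 0.259 CPM with IL-1ß (0.169 to 0.38). These intervals cover counting error only. With the spread between libraries taken in, TUBB1 was not called in PRP lysate against IL-1ß by edgeR (log2 change -1.82, adjusted p = 0.554) or DESeq2 (log2 change -1.91, adjusted p = 0.445). Against MSC-CM, DESeq2 gave -2.42 with an adjusted p of 0.305. Together the 3 genes had 0, 14 and 3 reads in the PRP lysate libraries, 7, 19 and 15 with IL-1ß, and 13 to 60 in the libraries of the other conditions apart from ACS replicate 1, which had 2.

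**Figure D3:**
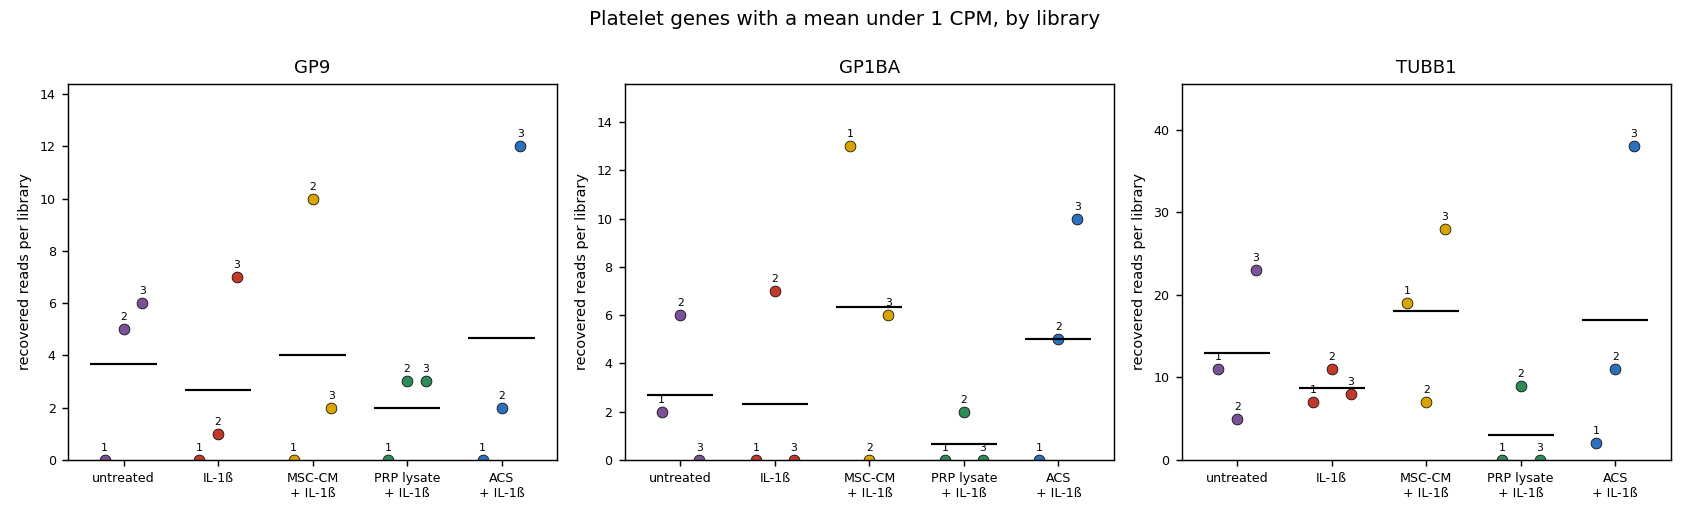
Recovered reads per library (vertical axes, from 0) of GP9, GP1BA and TUBB1, by condition. Points are libraries numbered by replicate and lines are means of 3. PRP lysate has the lowest mean in each panel, and TUBB1 had 9 reads in PRP lysate replicate 2 and 0 in the others.

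The wider set of platelet genes was described with 5 lists of other genes: surface receptors, granule contents, cytoskeleton, signalling and enzymes, and megakaryocyte transcription factors. Of 112 listed genes, 85 were tested. With PRP lysate against IL-1ß, 4 of the 85, or 4.71%, were called, 2 higher and 2 lower, beside 3.09% of all genes tested. The count was 8 without IL-1ß replicate 1 and 2 without IL-1ß replicate 2. Their median log2 difference was 0.16, beside 0.11 over all genes tested. By list, 3 of 15 surface receptors and 1 of 26 signalling genes were called, with 0 of 19 granule genes, 0 of 14 cytoskeleton genes and 0 of 11 transcription factors by limma. At an unadjusted p under 0.05 those last lists had 4, 2 and 4 genes, edgeR called 0 in each, and DESeq2 called 1, 0 and 2.

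P2RX1, an ATP-gated channel of platelets, stood at 0.296, 1.94 and 1.34 CPM with PRP lysate and 7.53, 7.94 and 5.43 CPM with IL-1ß, a log2 change of -1.93 (limma, Benjamini-Hochberg adjusted p = 0.00229). CD36, a thrombospondin and fatty acid receptor also made by macrophages, stood at 20.9, 77.2 and 58.1 CPM against 252, 218 and 105 CPM, a change of -1.95 (limma, Benjamini-Hochberg adjusted p = 0.0228). Both fell, with no overlap between the groups. F11R, a junctional adhesion molecule, stood at 20, 31.2 and 35.1 CPM against 10.4, 8.81 and 5.67 CPM, a change of 1.68 (limma, Benjamini-Hochberg adjusted p = 0.00197). GUCY1B1, a subunit of soluble guanylate cyclase, stood at 34.9, 79.1 and 62.8 CPM against 28.2, 19.4 and 5.39 CPM, a change of 1.86 (limma, Benjamini-Hochberg adjusted p = 0.03). Both rose, again with no overlap. The calls of P2RX1 and F11R were kept on leaving out each library in turn. That of CD36 was lost without IL-1ß replicate 1 (limma, adjusted p = 0.063) or 2 (limma, adjusted p = 0.0892). That of GUCY1B1 was lost without IL-1ß replicate 2 (limma, adjusted p = 0.0517) or PRP lysate replicate 2 (limma, adjusted p = 0.127) or 3 (limma, adjusted p = 0.107).

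**Figure D4:**
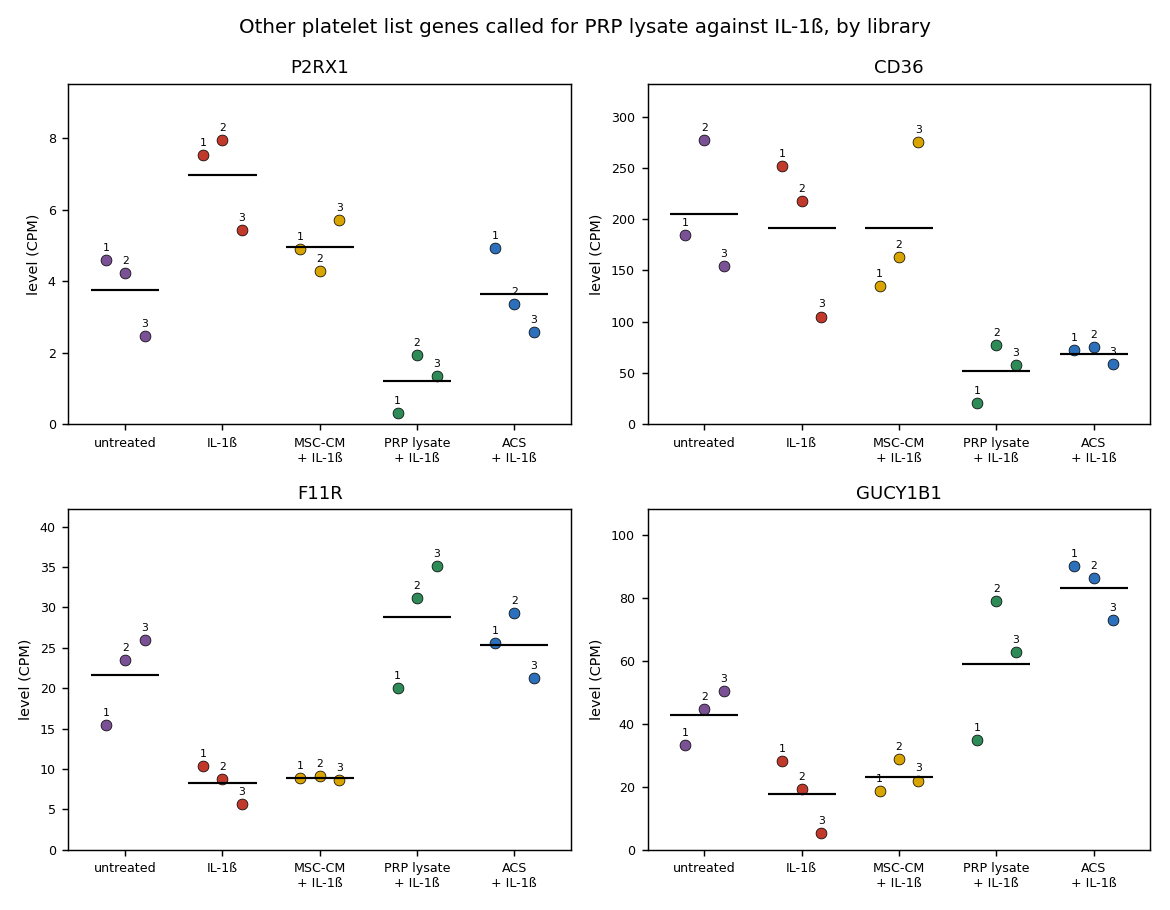
Levels in CPM (vertical axes, from 0) of P2RX1, CD36, F11R and GUCY1B1, the other platelet genes called for PRP lysate against IL-1ß, in each library by condition. Points are libraries numbered by replicate and lines are means of 3. P2RX1 and CD36 lie under, and F11R and GUCY1B1 above, the IL-1ß libraries with PRP lysate, and the ACS libraries of F11R and GUCY1B1 are also above them.

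Of the 85 other platelet genes, 3, or 3.53%, were called between ACS and IL-1ß, all higher, where 2.21% of all genes were called. The count was 9 without IL-1ß replicate 1, and 1 without ACS replicate 2. GUCY1B1 rose by 2.43 on the log2 scale (limma, Benjamini-Hochberg adjusted p = 0.0111), F11R by 1.53 (limma, Benjamini-Hochberg adjusted p = 0.00713) and GUCY1A1, the partner subunit of the cyclase, by 1.73 (limma, Benjamini-Hochberg adjusted p = 0.0177). The call of GUCY1B1 was lost without ACS replicate 2 (limma, adjusted p = 0.0555). That of GUCY1A1 was lost without ACS replicate 1 (0.0604), 2 (0.0852) or 3 (0.0665), each a limma adjusted p. These comparisons share the IL-1ß libraries. Directly between PRP lysate and ACS, 0 of the 85 were called by limma, edgeR or DESeq2, and 5 had an unadjusted p under 0.05.

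Against MSC-CM, PRP lysate gave 4 calls among the 85, or 4.71%, beside 2.61% of all genes tested. The titles number these libraries but do not tie a number to a donor horse. With the replicate number as a block, the count was 1 in a fit of 12 libraries and 8 in a fit of the 6 libraries compared. F11R rose by 1.55 (limma, Benjamini-Hochberg adjusted p = 0.00396) and CCL5, a chemokine stored in platelets and made by macrophages and T cells, by 1.17 (limma, Benjamini-Hochberg adjusted p = 0.0378). P2RX1 fell by 1.52 (limma, Benjamini-Hochberg adjusted p = 0.0121) and CD36 fell by 1.98 (limma, Benjamini-Hochberg adjusted p = 0.0237). The call of CCL5 was lost on leaving out MSC-CM replicate 2 or 3 or any PRP lysate library (limma adjusted p of 0.0581 to 0.193), that of P2RX1 without MSC-CM replicate 3 (limma, adjusted p = 0.0726), and that of CD36 without MSC-CM replicate 2 (limma, adjusted p = 0.061) or 3 (limma, adjusted p = 0.136). With the block in 12 libraries F11R alone was called (limma, adjusted p = 0.0411), and CCL5, P2RX1 and CD36 were not (limma adjusted p of 0.147, 0.0627 and 0.1), while all of these were called with the block in the 6 libraries (limma adjusted p of 0.00387 to 0.0244). Against untreated macrophages CD36 fell by 2.10 with PRP lysate (limma, Benjamini-Hochberg adjusted p = 0.0239). It lost its call without PRP lysate replicate 1 or 3 or untreated replicate 1 or 2 (limma adjusted p of 0.0522 to 0.129). By limma 0 of the 85 were called for IL-1ß against untreated macrophages (18 at an unadjusted p under 0.05, 1 call by edgeR and 6 by DESeq2). For MSC-CM against IL-1ß 0 were called by limma, edgeR or DESeq2, with 7 at an unadjusted p under 0.05.

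The 27 listed platelet genes under 1 CPM summed to 4.81 to 6.30 CPM per library with PRP lysate and 4.56 to 7.60 CPM with IL-1ß. The sums were 5.98 to 8.38 CPM in untreated macrophages, 6.44 to 6.91 CPM with MSC-CM and 5.45 to 6.40 CPM with ACS. The PRP lysate libraries therefore overlapped IL-1ß, untreated and ACS libraries and lay under those with MSC-CM. By gene, the highest mean was that of PRP lysate in 10 of the 27, of IL-1ß and of MSC-CM in 5 each, of ACS in 4 and of untreated macrophages in 3. These low genes were not tested by limma, and 3 of them were chosen for mention after their values were seen, because they ran opposite to GP9, GP1BA and TUBB1. CMTM5 had 12, 1 and 3 reads in PRP lysate replicates 1, 2 and 3, and 1 read in all of the other 12 libraries. GP5, the remaining part of the von Willebrand factor receptor, had 0, 4 and 16 reads with PRP lysate and 0 with IL-1ß, with 8 in untreated macrophages, 9 with MSC-CM and 3 with ACS over 3 libraries each. MMRN1, a protein of the alpha granule, had 8 reads, all in PRP lysate replicate 3. With PRP lysate, most reads of GP5 and all of MMRN1 thus came from replicate 3, and most of CMTM5 from replicate 1. Erythroid markers, which would come with red cells of a blood product, summed to 2.75 to 3.97 CPM with PRP lysate, 4.01 to 4.64 CPM with ACS and 4.53 to 10.4 CPM with IL-1ß over 6 listed genes, and 0 of 3 tested were called by limma in any comparison (10 tests with an unadjusted p under 0.05, 0 calls by edgeR and 4 by DESeq2, and 1 by limma for PRP lysate or ACS against IL-1ß without IL-1ß replicate 1).

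PPBP sits in a cluster of CXC chemokine genes. In the table its neighbours by position were CXCL1, which starts at 63470014, an unnamed gene (ENSECAG00000012560) at 63622458 to 63624093, CXCL6 at 63638101 to 63640268 and CXCL8 at 63717745 to 63720939. All of the named neighbours encode ligands that attract neutrophils. CXCL6 stood at 258, 960 and 882 CPM with PRP lysate against 526, 296 and 358 CPM with IL-1ß, and CXCL8 at 907, 2870 and 3060 CPM against 958, 686 and 854 CPM. In both genes, as in PPBP, PRP lysate replicate 1 was within or under the IL-1ß range of levels and replicates 2 and 3 were above it. CXCL1 stood at 1830, 3060 and 2510 CPM against 1410, 989 and 1130 CPM, with all 3 PRP lysate libraries higher. The unnamed gene had levels of 0.322, 2.49 and 1.83 CPM with PRP lysate against 0.334, 0.593 and 0 CPM with IL-1ß, and was not tested.

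CXCL1 was called between PRP lysate and IL-1ß, with a log2 change of 1.05 (limma, Benjamini-Hochberg adjusted p = 0.0341), whereas CXCL6 gave 0.66 (limma, Benjamini-Hochberg adjusted p = 0.48) and CXCL8 1.28 (limma, Benjamini-Hochberg adjusted p = 0.0881). The call of CXCL1 was lost without IL-1ß replicate 2 or 3 or PRP lysate replicate 2 or 3 (limma adjusted p of 0.0613 to 0.141), and was kept in 4 of 15 alternatives, with log2 changes of 0.88 to 1.25. Without PRP lysate replicate 1, CXCL6 (1.27, limma adjusted p = 0.0272) and CXCL8 (1.84, limma adjusted p = 0.0017) were called. Against MSC-CM all of these rose with PRP lysate, CXCL1 by 1.65, CXCL8 by 2.09 and CXCL6 by 1.89 (limma, Benjamini-Hochberg adjusted p = 0.0027, 0.00763 and 0.0237). The call of CXCL6 there was lost with the replicate block in 12 libraries (limma, adjusted p = 0.0912), though not in the 6 compared (limma, adjusted p = 0.0192), and on leaving out PRP lysate replicate 2 or 3 or any MSC-CM library (limma adjusted p of 0.0627 to 0.109). Against untreated macrophages CXCL1 rose by 1.53 and CXCL6 by 2.26 (limma, Benjamini-Hochberg adjusted p = 0.00644 and 0.0134), the latter lost without PRP lysate replicate 3 or untreated replicate 1 or 2 (limma adjusted p of 0.0633 to 0.076). CXCL8 gave 1.48 there and was not called (limma, Benjamini-Hochberg adjusted p = 0.0701), but was called at 2.05 without PRP lysate replicate 1 (limma, adjusted p = 0.0021). Of the 4 tested genes in the list of PPBP receptors and neighbours, 0 were called by limma for ACS or MSC-CM against IL-1ß (2 at an unadjusted p under 0.05 in each, 0 by edgeR or DESeq2, though CXCL1 was called higher by 1.11 with ACS without IL-1ß replicate 1, at a limma adjusted p of 0.0374), for IL-1ß against untreated macrophages (1 at that p, 0 by edgeR, 1 by DESeq2) or for PRP lysate against ACS (0 by each).

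**Figure D5:**
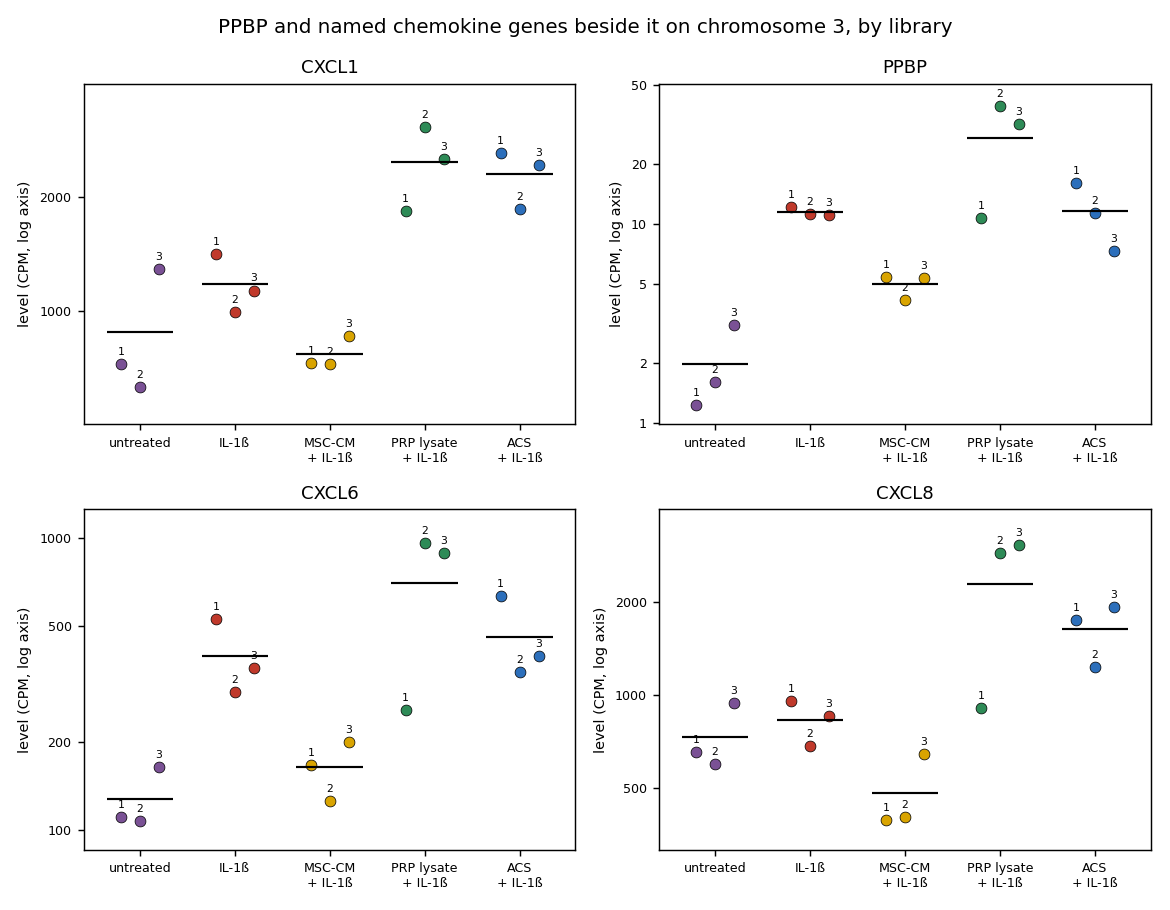
Levels in CPM (vertical axes, logarithmic) of PPBP and of the named chemokine genes CXCL1, CXCL6 and CXCL8 beside it, in each library by condition. Points are libraries numbered by replicate and lines are means of 3. In PPBP, CXCL6 and CXCL8, PRP lysate replicate 1 lies far under replicates 2 and 3, at 10.7, 258 and 907 CPM.

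Over the 15 libraries and all genes tested, the pattern of PPBP on the log2(CPM + 1) scale was most like those of CXCL6 (Pearson r = 0.949), CSF3 (r = 0.917), which encodes granulocyte colony stimulating factor, and FST (r = 0.853), which encodes follistatin. These r are descriptions over libraries that share conditions, and the 3 genes were picked for the likeness. The r of PPBP was -0.27 with SELP, -0.218 with ITGA2B and 0.12 with TREML1. CSF3 was called against MSC-CM (2.15) and untreated macrophages (2.51) with PRP lysate (limma, Benjamini-Hochberg adjusted p = 0.0411 and 0.0249). The first was lost with the replicate block in 12 libraries (limma, adjusted p = 0.139) and kept with it in the 6 compared (limma, adjusted p = 0.0242). Both calls were lost without PRP lysate replicate 2 or 3 or any library of the group compared with (limma adjusted p of 0.0656 to 0.169). Neutrophil markers summed to 486 to 546 CPM with PRP lysate, 530 to 759 CPM with ACS and 309 to 391 CPM with IL-1ß over 5 listed genes of 10, and the 1 of them tested was called in 0 comparisons by limma, edgeR or DESeq2, with an unadjusted limma p under 0.05 in 4. It was called for ACS against IL-1ß without ACS replicate 3 or IL-1ß replicate 3. Their part in the levels of PPBP was not tested.

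The pattern of SELP was most like those of CMKLR2 (r = 0.948), a receptor for chemerin, TMEM176A (r = 0.887) and BASP1 (r = 0.86). CMKLR2 stood at a mean of 0.468 ± 0.0908 CPM (SD, n = 3) with PRP lysate against 7.60 ± 2.85 CPM with IL-1ß, with a log2 change of -2.50 (limma, Benjamini-Hochberg adjusted p = 0.00268). TMEM176A had 7 reads in all over the 3 PRP lysate libraries and 325 over those with IL-1ß. Of the other genes near SELP, F5 and SELE stayed under 1 CPM in every library. SLC19A2, a thiamine transporter, gave 0.68 for PRP lysate against IL-1ß (limma, Benjamini-Hochberg adjusted p = 0.578). Of the list of P-selectin partners and kin, 0 of 8 tested were called by limma in any comparison (8 tests with an unadjusted p under 0.05, 0 calls by edgeR and 1 by DESeq2, and 1 by limma against IL-1ß without PRP lysate replicate 1). The 3 genes with the pattern most like ITGA2B were FAM204A (r = 0.873), HERPUD2 (r = 0.871) and SBDS (r = 0.864), and those for TREML1 were PABPC4 (r = 0.793), PARM1 (r = 0.792) and NAA30 (r = 0.791). The r of ITGA2B with TREML1 was 0.585.

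Endothelial markers, the other main source of SELP in the body, summed to 96.8 to 177 CPM with PRP lysate and 269 to 558 CPM with IL-1ß over 14 listed genes. With IL-1ß most of that sum was PECAM1, which leukocytes and platelets also make. PECAM1 stood at 48.3, 71.7 and 71.3 CPM with PRP lysate and 500, 455 and 244 CPM with IL-1ß. PECAM1 fell by 2.59 on the log2 scale (limma, Benjamini-Hochberg adjusted p = 0.000694) and was the 1 called of 7 tested in the list. The defining endothelial gene VWF had 0 reads in the PRP lysate and ACS libraries and 2 to 8 over the 3 libraries of each other condition. CDH5, the endothelial cadherin, stood at 6.13 ± 3.17 CPM with PRP lysate and 2.04 ± 0.691 CPM with IL-1ß, opposite in order to SELP, and was not called (limma, Benjamini-Hochberg adjusted p = 0.0859). Without PRP lysate replicate 1 it was called higher by 1.58 (limma, adjusted p = 0.00421), and so was FLT1, a VEGF receptor, by 1.55 (limma, adjusted p = 0.0211), which made 3 calls in the list. Among macrophage markers, 5 of 13 tested were called lower with PRP lysate than with IL-1ß and 0 were called higher. The largest of these changes was that of CD163 (log2 change -5.50, limma, Benjamini-Hochberg adjusted p = 9.04e-06). Of the 8 not called, CSF1R had a mean of 182 CPM against 376 CPM and ADGRE1 8.44 CPM against 38.7 CPM, while CD68 was about level at 1660 against 1630 CPM. The count was 3 without IL-1ß replicate 2 or PRP lysate replicate 2 or 3, where LYZ and MARCO lost their calls (limma adjusted p of 0.065 to 0.132). MARCO also lost its call without PRP lysate replicate 1 (limma, adjusted p = 0.0783) or IL-1ß replicate 1 (limma, adjusted p = 0.052). Without IL-1ß replicate 3, LYZ lost its call (limma, adjusted p = 0.0552) and CSF1R was called, with a log2 change of -1.41 (limma, adjusted p = 0.0183). The count was again 5 without both libraries that stood apart. Such calls were also made for ACS against IL-1ß, where SELP was not called: PECAM1 fell by 1.79, CD163 by 3.12 and AIF1 by 1.10, and FLT1 rose by 1.74 (limma, Benjamini-Hochberg adjusted p = 0.0134, 0.00149, 0.0133 and 0.0237). Of these, the call of CD163 was kept on leaving out each library in turn, while those of PECAM1, AIF1 and FLT1 were each lost on leaving out 1 of several libraries, ACS replicates 2 and 3 and IL-1ß replicate 2 among them (limma adjusted p of 0.0505 to 0.101). The part of these markers in the level of SELP was not tested.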

How the data were processed

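Polyadenylated RNA of equine macrophages was sequenced by the authors in 150-base paired reads, trimmed, aligned with STAR 2.7.3 to EquCab3.0, counted with HTSeq in Partek and deposited as CPM for 16932 protein-coding genes. Strand use in counting is not given in the sources used here, so overlapping and near-identical genes are uncertain. All columns were matched to samples, with 0 left unmatched. Columns sum to 982495 to 991421 CPM. Dividing by the value of 1 read (0.0209 to 0.0352 CPM) gave whole reads, within 0.05 of a read, for 100% of 125504 values of up to 1000 reads. CPM is relative to the library total, and no gene length was used. Levels of different genes set side by side, and sums over genes, are therefore only rough.

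Genes averaging 1 CPM or more were fitted by limma 3.58.1 with an intensity trend on log2(CPM + 1), 15 libraries and 5 conditions in 1 model, without pairing, with Benjamini-Hochberg adjustment within each of 7 comparisons. The pseudocount shrinks changes of low genes. Alternatives were a pseudocount of 0.1, no filter, RLE and TMM factors, a replicate block, leaving out each library, only the compared groups, no fold threshold, and edgeR 4.0.16 and DESeq2 1.42.0 on recovered reads (R 4.3.3, Python 3.11.15, seed 20230216). Leaving out IL-1ß replicate 3 and PRP lysate replicate 1 together, and the block in a fit of PRP lysate and MSC-CM alone, were chosen after seeing the data. On simulated data for PRP lysate against IL-1ß with 200 changed genes among 11624, limma called 162 of them and 1 unchanged gene. The simulation gave every gene a dispersion of 0.05 and held no outlying library. Its changed genes were drawn from levels above those of ITGA2B and TREML1, so its rates need not hold for the members.

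Titles number the libraries apart from ACS, and do not tie the numbers to donor horses. Same-numbered PRP lysate and MSC-CM libraries deviated together (r = 0.635, 0.255 and 0.419), and those of other pairs of conditions did not do so in every number. Named genes are all members, list genes called (at most 6 per comparison), defining markers, the 3 genes most correlated with each tested member, and 2 neighbours on each side of PPBP and SELP. ITGB3, FLT1, CMTM5, GP5 and MMRN1 were added after their values were seen. Some genes that these rules name are not reported here. The members and lists were chosen with earlier results of these data known. Marker, platelet, selectin and chemokine lists came from general knowledge.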

Additional observations from a re-analysis of the deposited data

How the results depend on the processing

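Over 28 combinations of a tested member and a comparison, 444 refits were made: 403 kept the direction and the side of the threshold, 16 lost a call, 12 gained one and 13 turned in sign. The number of members called for IL-1ß against untreated macrophages was 1, and became 0 with no filter, with only the 2 groups fitted and with the replicate block, 2 by DESeq2 and 2 without IL-1ß replicate 3 and PRP lysate replicate 1 (0 to 1 on leaving out 1 library). For PRP lysate against IL-1ß it was 1 and became 2 without those 2 libraries (1 to 2 on leaving out 1). For PRP lysate against MSC-CM it was 2, and 1 with only the 2 groups (1 to 2 on leaving out 1). For PRP lysate against ACS it was 1, with 2 without those libraries and 0 with only the 2 groups (0 to 1). For PRP lysate against untreated macrophages it was 1, with 2 for a pseudocount of 0.1 CPM, without those libraries, by edgeR and by DESeq2, and 0 with only the 2 groups (1 to 2). For ACS against IL-1ß it was 0 (0 to 1).

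Signs that turned belonged to differences that were never called. SELP for MSC-CM against IL-1ß was -0.066 with RLE factors, -0.053 with TMM factors, -0.044 by edgeR and -0.090 by DESeq2, and -0.060 to 0.26 on leaving out 1 library. Without the 2 libraries that stood apart, ITGA2B was -0.080 for PRP lysate and -0.0084 for MSC-CM against IL-1ß. On leaving out 1 library it was -0.14 to 0.56 and -0.0084 to 0.69, and -0.33 to 0.080 for PRP lysate against MSC-CM. PPBP for ACS against IL-1ß was -0.30 to 0.22, and TREML1 for PRP lysate against untreated macrophages -0.079 to 0.24. The cause was not tested.

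The replicate block changed no member's call for PRP lysate against MSC-CM (adjusted p of PPBP by limma 0.0411 in 12 libraries and 0.0141 in 6). Whether the same number means the same donor horse there is not stated. Elsewhere the block, with numbers to which the labels give no pairing, took away the call of PPBP for IL-1ß against untreated macrophages (limma, adjusted p = 0.252). It changed no other member's call. No paired analysis was possible for ACS because its titles carry no number. The median change of all genes was 0.11, 0.13 and 0.16 for PRP lysate, ACS and MSC-CM against IL-1ß, and 0.020, 0.013 and -0.0025 with RLE factors. Of the 85 other platelet genes, 4 were called for PRP lysate against IL-1ß by limma, 5 by edgeR, 9 by DESeq2, 2 with the block and 0 with only the 2 groups (2 to 8 on leaving out 1 library). For ACS it was 3, 7 by DESeq2 and 0 with only the 2 groups (1 to 9), and for PRP lysate against MSC-CM 4, 7 by DESeq2 and 1 with only the 2 groups (1 to 4). Depth limits GP9, GP1BA and TUBB1, with 0 to 38 reads per library.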
